A study of Mus musculus with 6 samples.

Results

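The genes described here make and carry the sugar chains of the extracellular matrix: proteoglycan core proteins, the link proteins and synthases of hyaluronan, and the enzymes that build and sulfate chondroitin sulfate, dermatan sulfate, keratan sulfate and heparan sulfate. They were listed by name, 59 in all, and a row of the array table counted as a member where its annotation gave that gene as the only symbol. By that rule 58 of the 59 were measured, each by 1 transcript cluster, out of 19938 genes. Ndst1 was not analysed here. The tissue was lumbar spinal cord from mouse embryos at E15.5 of strain SV129, in 3 wild-type samples and 3 samples of genotype TNC -/-, the labelled knockout of tenascin-C. Each sample was hybridised to 1 whole-transcript array and called a biological replicate by the labels, which do not say whether these were separate embryos or litters, so the p-values measure the spread between these samples. Which part of Tnc was removed is not given in the sources used here.

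Proteoglycans consist of a core protein with long glycosaminoglycan chains, and in the embryonic spinal cord they fill the space between cells, store growth factors and steer axons and migrating precursors. The lecticans, a family of chondroitin sulfate proteoglycans, bind hyaluronan at one end and tenascins at the other, which places them next to tenascin-C in the matrix. Chain synthesis starts on a shared linker sugar, splits into a chondroitin and a heparan branch, and ends with sulfotransferases and epimerases whose pattern of marks decides which ligands bind.

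No member passed the test for a difference between knockout and wild type. In limma with Benjamini-Hochberg adjustment, 0 of 58 members had an adjusted p under 0.05, as did 0% of all 19938 genes tested. An unadjusted p under 0.05 was reached by 0 of 58 members, beside 1.70% of all genes. For 6 members the 3 knockout values lay wholly on one side of the 3 wild-type values. That is 10.3% of members beside 5.82% of all genes. Of these, Bcan, Chpf, Ust, Dse and Ndst2 were higher in knockout (8.62% of members, 3.18% of all genes) and Chpf2 was lower (1.72% of members, 2.64% of all genes). Separate groups are easier to reach with fewer arrays, and without wild-type replicate 3 the count was 15 of 58, when 23.5% of all genes had separate groups. Dropping wild-type replicate 1 gave 13 (16.2% of all genes). Dropping knockout replicate 1 gave 14 (12.9% of all genes), and dropping wild-type replicate 2 gave 9 (11.6%). Without knockout replicate 2 the count was 7 (11.0% of all genes), and without knockout replicate 3 it was 8 (13.2%). The 6 members named above stay separate by construction when an array is dropped, so these counts say nothing about them. Differences are given as log2 units, knockout minus wild type, on the scale of RMA, a summary that corrects background and equalises the arrays. The 58 differences ran from -0.25 (Has2) to 0.18 (Bcan), with a median of 0.023 over members and -0.0069 over all genes.

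The intervals bound what these arrays leave possible. For 57 of 58 members the 95% confidence interval lay within 0.5 log2 units of no difference, beside 18947 of all 19938 genes. For 22 members it lay within 0.25, beside 7001 of all genes. The only member outside the wider bound was Has2, whose interval reached -0.50. The median within-group standard deviation was 0.10 over members and 0.12 over all genes, and the median size of the difference was 0.04 and 0.05. The targeted gene Tnc read 10.72, 10.22 and 10.02 in wild type and 9.64, 9.76 and 9.47 in knockout, a difference of -0.69 with a limma unadjusted p of 0.00380 and an adjusted p that rounds to 1. The knockout mean was 61.8% of wild type, and all 3 knockout values stayed well above 6.14, the level used as a guide to background. Without the position of the deletion, this cluster cannot show whether the transcript was lost. Knockout replicates 1 and 3 carried Y-linked transcripts and the other 4 arrays did not. With Y-linked signal as a term, genotype rests on knockout replicate 2 alone. In that fit 15 of 58 members changed sign, and the share over all genes was not computed. The median difference was then 0.024 over members and -0.011 over all genes. The cord samples held their defining transcripts: the 6 neuronal markers averaged 12.47 to 12.56 over the arrays and the 3 lumbar Hox genes Hoxa10, Hoxc10 and Hoxd10 11.19 to 11.40. Of forebrain markers Tbr1 read 5.01 to 5.43, under the guide of 6.14, and Emx1 read 7.32 to 8.01, above it. For that guide, 1190 receptor genes of the nose (olfactory and vomeronasal) were taken as silent in cord and 95% of them lay below it.

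**Figure D1:**
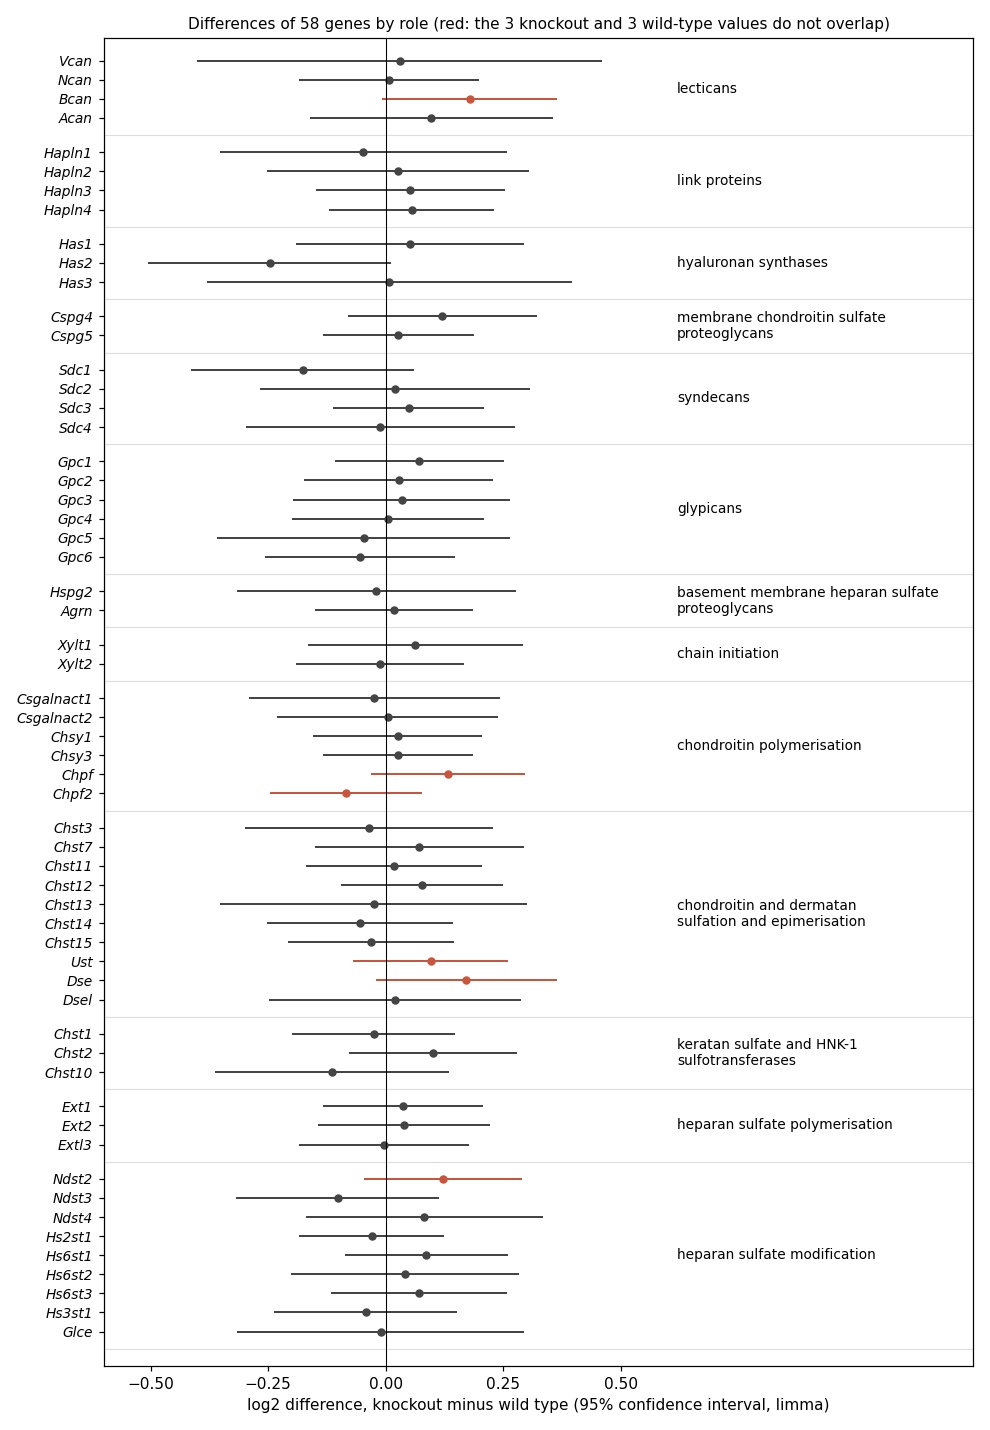
Log2 difference (knockout minus wild type) on the horizontal axis for each of the 58 genes, grouped by role, with the 95% confidence interval from limma over 6 arrays. Every interval crosses 0, and the 6 red genes are those whose knockout and wild-type values do not overlap.

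Promoter sequence is shown for 3 of the members whose groups did not overlap. Bcan had the highest difference of the 58, and Chpf and Chpf2 are paralogous chondroitin chain-building genes that lay on opposite sides of 0. Each run is the 250 bases before the RefSeq transcript start in assembly GRCm38.p6, with capitals marking matches on either strand to 4 short motifs. The TATA box was searched as TATAAA. The CCAAT box was searched by the letters of its name. The GC box was searched as GGGCGG. The cyclic AMP response element was searched as TGACGTCA. None of these motifs overlapped another in the runs shown. The runs lie at chr3:88000357-88000606 on the minus strand for Bcan, chr1:75479472-75479721 on the minus strand for Chpf and chr5:24586494-24586743 on the plus strand for Chpf2.

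Bcan: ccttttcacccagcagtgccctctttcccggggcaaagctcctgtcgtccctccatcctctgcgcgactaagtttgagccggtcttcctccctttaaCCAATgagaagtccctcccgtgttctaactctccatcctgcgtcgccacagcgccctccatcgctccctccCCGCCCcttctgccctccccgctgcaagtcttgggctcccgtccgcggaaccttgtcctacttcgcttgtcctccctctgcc

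Chpf: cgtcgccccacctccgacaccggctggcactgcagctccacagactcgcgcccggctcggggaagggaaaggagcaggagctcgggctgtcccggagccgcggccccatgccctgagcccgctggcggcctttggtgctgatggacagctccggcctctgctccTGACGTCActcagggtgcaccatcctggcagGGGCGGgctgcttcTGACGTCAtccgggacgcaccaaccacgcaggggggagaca

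Chpf2: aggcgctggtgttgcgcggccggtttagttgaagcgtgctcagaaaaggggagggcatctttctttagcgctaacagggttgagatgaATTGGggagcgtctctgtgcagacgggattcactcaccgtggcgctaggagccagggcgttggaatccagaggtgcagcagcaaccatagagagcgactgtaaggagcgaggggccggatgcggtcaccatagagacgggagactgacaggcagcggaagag

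The Chpf run holds 2 copies of the response element, which begin 86 and 41 bases before the start, and 1 GC box. The Bcan run holds 1 CCAAT box and 1 GC box, and the Chpf2 run 1 CCAAT box on the minus strand. Over 51 promoters of 45 members found in the RefSeq table, the response element occurred in 3.92%, beside 1.55% of 32851 promoters of all genes. The other carrier among the members was Has1. A GC box occurred in 68.6% of member promoters and 32.7% of all, a CCAAT box in 41.2% and 33.8%, and a TATA box in 7.84% and 12.4%. Member promoters were also richer in G and C, with a median of 64.4% beside 52.4% over all. These matches describe the letters in the windows, and no factor binding was measured.

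Among the lecticans only brevican separated the groups. Bcan, made by glia and oligodendrocyte precursors of the central nervous system, read 10.01, 9.88 and 10.09 in wild type and 10.15, 10.23 and 10.15 in knockout. All 3 knockout arrays were above the highest wild-type array. The difference of 0.18 (limma unadjusted p = 0.0561) put the knockout at 113% of wild type, with a confidence interval from 99.6% to 129%. With single arrays left out it ran from 0.12 (without wild-type replicate 2) to 0.23 (without wild-type replicate 3), and the unadjusted p was 0.0222 in the latter fit. The groups of Bcan overlapped when the values were quantile normalized again, with a difference of 0.19.

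Neurocan, the lectican of young neurons, gave the closest match between the groups among the 4 lecticans. Ncan read 12.58, 12.50 and 12.69 in wild type and 12.51, 12.62 and 12.67 in knockout, and its interval ran from 88.1% to 115% of wild type. Versican, the large lectican of embryonic mesenchyme and glial precursors, varied most among the wild-type arrays within that family. Vcan read 9.84 in wild-type replicate 1 but 9.19 and 9.20 in replicates 2 and 3, and 9.27, 9.66 and 9.39 in knockout. The groups overlapped, and the Vcan difference of 0.03 became 0.24 without wild-type replicate 1 but -0.08 when knockout replicate 2 was dropped. Aggrecan, the cartilage proteoglycan that also coats mature neurons, read 5.58, 5.72 and 5.99 in wild type and 5.80, 5.83 and 5.94 in knockout. These Acan values lay under the background guide, and the difference of 0.10 was 0.0049 without wild-type replicate 1 and reached 0.21 (unadjusted p = 0.0385) without wild-type replicate 3. The 9 cartilage markers averaged 6.77 to 7.14 in wild type and 6.79 to 6.96 in knockout, and 3 of them lay under the guide. Their part in the Acan signal was not tested.

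The link proteins, which clamp lecticans onto hyaluronan, showed no member with separate groups. Hapln1 read 5.95, 5.78 and 6.23 in wild type and 5.95, 6.09 and 5.78 in knockout, under the guide in both group means. Hapln2, Hapln3 and Hapln4 differed by 0.03, 0.05 and 0.06. Each link gene is the immediate protein-coding neighbour of a lectican gene in the RefSeq table: Hapln1 of Vcan on chromosome 13, Hapln2 of Bcan on chromosome 3, Hapln3 of Acan on chromosome 7 and Hapln4 of Ncan on chromosome 8. The largest gap within such a pair was that of Bcan and Hapln2, at 0.18 and 0.03.

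**Figure D2:**
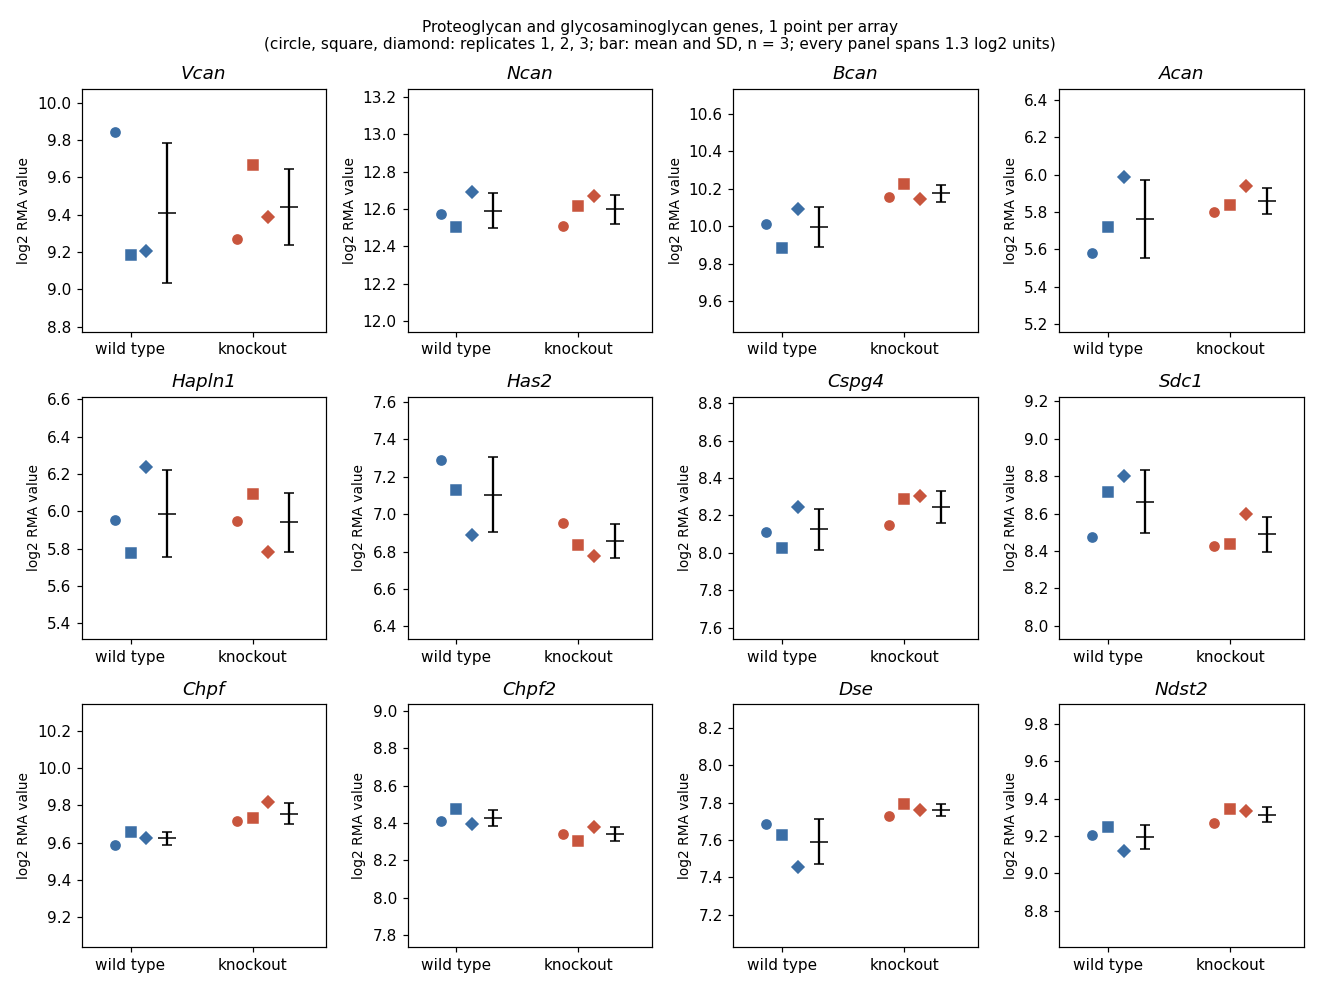
Log2 RMA value (vertical axis) in each of the 3 wild-type and 3 knockout arrays for 12 genes, with the mean and SD of each group (n = 3). Bcan, Chpf, Dse and Ndst2 have all knockout points above the wild-type points and Chpf2 all below, while Vcan shows 1 wild-type array at 9.84 and the others near 9.2.

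Of the hyaluronan synthases, which spin the chain out through the cell membrane, Has2 had the most negative difference of all 58 members. Has2, the main synthase of the embryo, read 7.29, 7.13 and 6.89 in wild type and 6.95, 6.84 and 6.78 in knockout. The highest knockout array lay just above the lowest wild-type array, so the groups overlapped. The difference of -0.25 (limma unadjusted p = 0.0564) put the knockout at 84.3% of wild type, with an interval from 70.6% to 101%. It ran from -0.35 without wild-type replicate 3, where the unadjusted p was 0.00416, to -0.15 without wild-type replicate 1. Has3 read 8.64, 8.30 and 7.90 in wild type but only 8.22 to 8.34 in knockout, and its difference of 0.0076 became 0.19 without wild-type replicate 1 and -0.18 without wild-type replicate 3. Has1 differed by 0.05.

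The membrane-spanning chondroitin sulfate proteoglycans overlapped between groups. Cspg4, the NG2 antigen of oligodendrocyte precursors and pericytes, read 8.11, 8.03 and 8.24 in wild type and 8.15, 8.29 and 8.30 in knockout, a difference of 0.12 (94.7% to 125% of wild type). Cspg5, neuroglycan C, read 10.87, 10.78 and 10.79 in wild type and 10.83, 10.81 and 10.87 in knockout. Of the markers of oligodendrocyte precursors, 5 of 5 had a higher mean in knockout, beside 46.4% of all genes. The groups of 3 of them, Olig1, Olig2 and Nkx2-2, did not overlap, beside 5.82% of all genes. A limma unadjusted p under 0.05 was reached by 2, Olig2 and Nkx2-2, beside 1.70% of all genes. None of the 5 passed the adjusted threshold. The mean of that list was 8.58 to 8.69 in wild type and 8.80 to 8.91 in knockout, and all 5 lay above the guide. For 5 astrocyte markers the means were 8.90 to 8.99 and 8.98 to 9.04, with 3 of 5 higher and 2 lower. Of these, Aqp4 differed by 0.26 with separate groups (limma unadjusted p = 0.0222) and Slc1a2 by -0.13, and both Gfap means lay under the guide. For 4 pericyte markers the list means were 8.80 to 9.03 and 8.95 to 9.16, with 4 of 4 higher, beside 46.4% of all genes. Their part in the Bcan and Cspg4 differences was not tested, and in whole tissue a change in the number of cells of a type and a change in RNA per cell cannot be told apart.

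Heparan sulfate proteoglycan cores differed little. Among syndecans, which span the membrane and act as co-receptors, Sdc1 read 8.48, 8.72 and 8.80 in wild type and 8.43, 8.44 and 8.60 in knockout. Those groups overlapped through wild-type replicate 1. The Sdc1 difference of -0.18 was -0.27 without that array (unadjusted p = 0.0175) and -0.11 without wild-type replicate 3. Sdc3, the syndecan of neurons, read 12.21, 12.13 and 12.21 in wild type and 12.21, 12.26 and 12.23 in knockout, within 92.7% to 115% of wild type. Sdc2 and Sdc4 differed by 0.02 and -0.01.

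The 6 glypicans, which are anchored to the membrane by a lipid and modulate morphogen signals, had differences between -0.05 (Gpc6) and 0.07 (Gpc1). Gpc2, a glypican of growing axons, read 10.90, 11.07 and 11.11 in wild type and 11.01, 11.00 and 11.15 in knockout. Gpc3, Gpc4 and Gpc5 differed by 0.03, 0.0046 and -0.05. Gpc3 and Gpc4 lie next to each other on the X chromosome, with Hs6st2 and Chst7 also on it. Gpc3 read 9.38, 9.22 and 9.01 in wild type and 9.23, 9.26 and 9.23 in knockout. Gpc4 read 8.96, 9.23 and 9.02 in wild type and 9.07, 9.10 and 9.05 in knockout. For both genes the 2 knockout arrays with Y-linked signal (replicates 1 and 3) lay below replicate 2 and within the wild-type range.

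The basement membrane cores of vessels and meninges showed the same overlap. Perlecan (Hspg2) read 8.32, 8.16 and 8.37 in wild type and 8.00, 8.30 and 8.49 in knockout, where replicate 1 was the lowest of all arrays and replicate 3 the highest. Agrin (Agrn) read 11.51, 11.55 and 11.51 in wild type and 11.52, 11.48 and 11.62 in knockout, an interval of 90.3% to 113%. Endothelial markers were higher in 6 of 6 cases, beside 46.4% of all genes. Of these, Cdh5 (0.26) and Pecam1 (0.20) had separate groups, beside 5.82% of all genes. Their limma unadjusted p-values were 0.0310 and 0.0421, and 1.70% of all genes had such a p under 0.05. The list means were 8.58 to 8.80 in wild type and 8.75 to 8.99 in knockout. Hspg2 and Agrn differed by -0.02 and 0.02, and the part of endothelial cells in their signal was not tested. These 2 genes and Sdc3 share chromosome 4 with Tnc, and their differences ran from -0.02 to 0.05.

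Chain synthesis starts with the xylosyltransferases, which put the first sugar on the core. Xylt1 read 9.68, 9.50 and 9.67 in wild type and 9.52, 9.81 and 9.71 in knockout, and Xylt2 differed by -0.01. The chondroitin branch begins with the galactosaminyltransferases Csgalnact1 and Csgalnact2. Csgalnact1 read 7.54, 7.33 and 7.31 in wild type and 7.53, 7.43 and 7.16 in knockout, and Csgalnact2 differed by 0.0042.

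Chain elongation held the only 2 paralogs that separated the groups on opposite sides. Chpf, the chondroitin polymerizing factor, read 9.59, 9.66 and 9.63 in wild type and 9.71, 9.73 and 9.82 in knockout, a difference of 0.13 (98.0% to 123% of wild type, limma unadjusted p = 0.0955). Chpf2 read 8.41, 8.47 and 8.40 in wild type and 8.34, 8.30 and 8.38 in knockout, a difference of -0.08 (84.5% to 105%, unadjusted p = 0.255). The gap between the groups was small in each case, and neither passed the test. The difference between the paralogs was not tested. The Chpf2 groups overlapped after renewed quantile normalization (-0.07) and after centring each array on its median (-0.05), whereas those of Chpf stayed apart in both. The synthases Chsy1 and Chsy3, which act together with these factors, each differed by 0.03.

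Among the enzymes that mark the chondroitin and dermatan chain, Dse and Ust had separate groups. Dse, the epimerase that turns chondroitin into dermatan, read 7.69, 7.63 and 7.46 in wild type and 7.73, 7.80 and 7.76 in knockout. Its difference was 0.17, or 98.7% to 129% of wild type, with a limma unadjusted p of 0.0715. It was 0.22 (unadjusted p = 0.0347) without wild-type replicate 1 and 0.10 without wild-type replicate 3. The related epimerase Dsel differed by 0.02 with overlapping groups. Ust, which sulfates the uronic acid of the chain, read 9.56, 9.65 and 9.65 in wild type and 9.76, 9.71 and 9.66 in knockout. The Ust difference was 0.10, with knockout replicate 3 only just above the wild-type arrays, and the groups overlapped after renewed quantile normalization.

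The sulfotransferases that act on the galactosamine of the chain had overlapping groups throughout. Chst11, the main one of cartilage and brain development, read 9.44, 9.32 and 9.41 in wild type and 9.36, 9.34 and 9.52 in knockout. Chst3 read 7.52, 7.35 and 7.59 in wild type and 7.23, 7.53 and 7.59 in knockout. Chst15, which adds a further sulfate to an already sulfated sugar, read 10.45, 10.51 and 10.42 in wild type and 10.34, 10.45 and 10.50 in knockout. Chst7 (0.07), Chst12 (0.08), Chst13 (-0.03) and Chst14 (-0.05) completed the group, with both Chst7 means under the background guide. Of the sulfotransferases for other glycans, Chst2 differed by 0.10, Chst1 by -0.03 and Chst10, which makes the HNK-1 epitope of neural adhesion molecules, by -0.11. The Chst10 difference was -0.02 without knockout replicate 3.

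The heparan sulfate polymerases were level between the groups. Ext1 read 10.25, 10.29 and 10.39 in wild type and 10.31, 10.38 and 10.35 in knockout, an interval of 91.3% to 115%. Its partner Ext2 and the chain initiator Extl3 differed by 0.04 and -0.0038. Of the enzymes that modify the chain, Ndst2 alone had separate groups. Ndst2 replaces acetyl groups by sulfate, and read 9.21, 9.25 and 9.12 in wild type and 9.27, 9.34 and 9.33 in knockout, a difference of 0.12 (97.0% to 122%, limma unadjusted p = 0.127). Its relatives Ndst3 and Ndst4 differed by -0.10 and 0.08, and Ndst3 by -0.19 (unadjusted p = 0.0331) without wild-type replicate 3 and -0.04 without wild-type replicate 1. Hs2st1 had the narrowest range over the 6 arrays of all members, with 9.94, 9.97 and 9.91 in wild type and 9.91, 9.92 and 9.90 in knockout, or 88.1% to 109% of wild type. Hs6st2 read 10.09, 9.79 and 9.75 in wild type and 9.93, 9.99 and 9.85 in knockout. Hs6st1 (0.09), Hs6st3 (0.07), Hs3st1 (-0.04) and the epimerase Glce (-0.01) overlapped between groups as well.

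**Figure D3:**
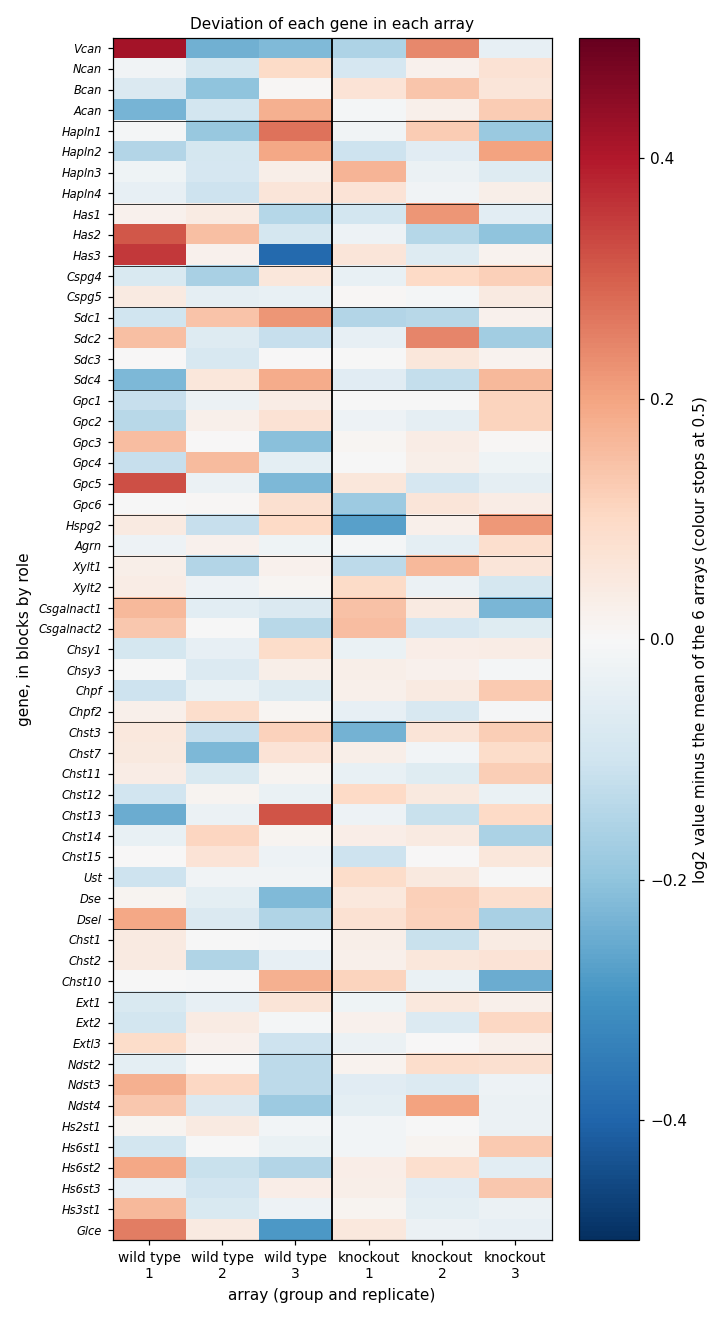
Each cell gives a gene's log2 value in 1 array minus its mean over the 6 arrays, with genes in blocks by role and arrays as columns. Vcan stands out in wild-type replicate 1, and wild-type replicates 1 and 3 lie on opposite sides of the mean for Has3, Gpc5, Glce and Chst13.

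The median range over members was 0.20 log2 units among the 3 wild-type arrays and 0.15 among the 3 knockout arrays. The range of the 3 wild-type values exceeded that of the 3 knockout values for 37 of 58 members, or 63.8%, beside 67.5% of all genes. Wild-type replicates 1 and 3 were the 2 ends of the 6 arrays for 12 members (20.7%, beside 22.9% of all genes). Glce read 9.41, 9.20 and 8.86 in wild type and 9.11 to 9.20 in knockout, and Gpc5 read 8.82, 8.47 and 8.27 against 8.41 to 8.55. Chst13 ran the other way, from 7.62 in wild-type replicate 1 to 8.19 in replicate 3. Wild-type replicate 2 was the lowest array for 16 members (27.6%, beside 12.4% of all genes) and knockout replicate 3 the highest for 15 (25.9%, beside 13.2%). In all, 37 members were higher and 21 lower in knockout, so 63.8% were higher, beside 46.4% of all genes. Without wild-type replicate 2 the higher members numbered 31, or 53.4%, beside 47.9% of all genes, and the median over members was 0.0052. After renewed quantile normalization 63.8% of members were higher, beside 54.7% of all genes. With each array centred on its median 46 were higher, or 79.3%, beside 62.0% of all genes. Leaving out single arrays never turned the direction of 23 of 58 members (39.7%, beside 40.1% of all genes). These include Has2 and Sdc1, and also the 6 members with separate groups, whose sign cannot turn when 1 array is dropped.

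**Figure D4:**
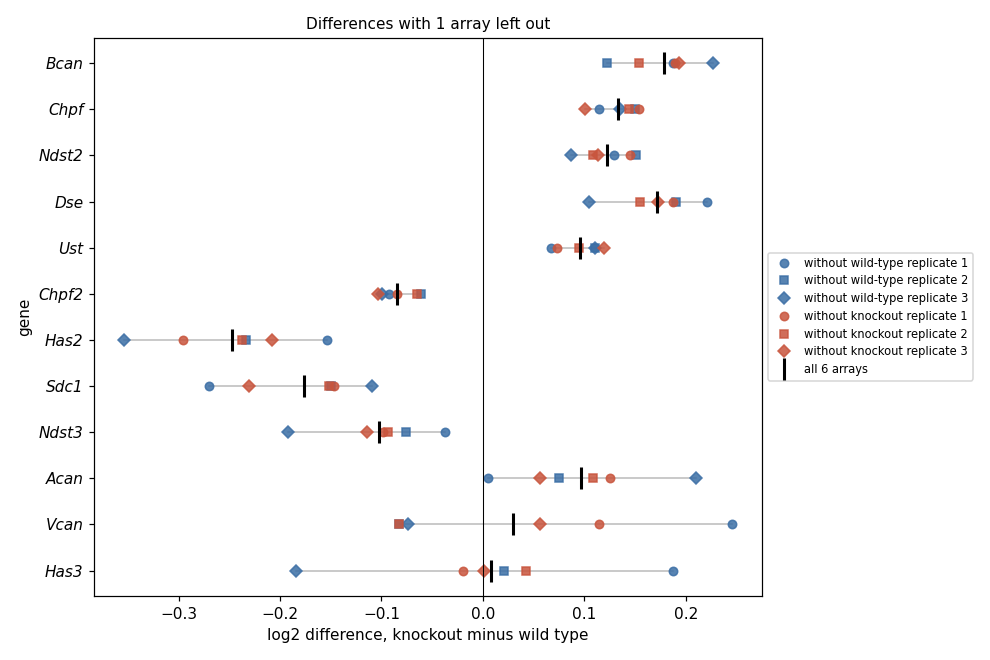
Log2 difference (knockout minus wild type, horizontal axis) for 12 genes with all 6 arrays (black bar) and with each array left out in turn (coloured points). Has2, Sdc1, Ndst3 and Acan keep their sign and Vcan and Has3 cross 0, while the 6 genes with separate groups cannot change sign when 1 array is dropped.

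Other genes of the same pathways, 79 measured of 82 on 6 lists, gave 4 with an unadjusted p under 0.05 in limma, 2 higher and 2 lower, and 0 past the adjusted threshold. Of all genes, 1.70% had such a p. Their groups did not overlap for 9 (7 higher, 2 lower), beside 5.82% of all genes. The 2 higher genes with an unadjusted p under 0.05 in limma were Sulf1 and Hs3st4. Sulf1, a sulfatase that strips sulfate outside the cell, read 9.28, 9.34 and 9.87 in wild type and 9.80, 10.16 and 9.99 in knockout. The Sulf1 groups overlapped through wild-type replicate 3 and knockout replicate 1. Its difference was 0.49 (limma unadjusted p = 0.0192), or 0.37 without wild-type replicate 1. Its relative Sulf2 differed by 0.17 with separate groups. Hs3st4, a late-acting sulfotransferase of neurons, read 9.47, 9.33 and 9.50 in wild type and 9.58, 9.60 and 9.65 in knockout, a difference of 0.18. Hs3st3b1, the lower gene of smallest p on that list, differed by -0.08.

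For the donors of the chain, 14 of 14 listed genes were measured. Slc35b2 carries activated sulfate into the Golgi apparatus, and read 8.39, 8.48 and 8.50 in wild type and 8.27, 8.24 and 8.33 in knockout. Its groups did not overlap, with a difference of -0.17 (limma unadjusted p = 0.0397). Slc35d1, which carries sugar nucleotides, read 7.42, 7.40 and 7.47 in wild type and 7.59, 7.63 and 7.54 in knockout, a difference of 0.16. For chain breakdown, 14 of 17 were measured, 8 higher and 6 lower, with 0 under an unadjusted p of 0.05 in limma; Hexa (0.17) and Hpse2 (-0.07) had the smallest p in each direction, and Hpse2 differed by 0.02 without knockout replicate 3. Linker and related enzymes numbered 3 higher and 7 lower, with Chst8 at 0.18 and B3gat3 at -0.06.

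Of 17 other proteoglycans 7 were higher and 10 lower, but 7 of the 17 lay under the background guide. These were Lum, Ogn, Omd, Epyc and Aspn among the lower genes and Prg4 and Esm1 among the higher. Lum, a small proteoglycan of connective tissue, differed by -0.30 (limma unadjusted p = 0.00511), but all its values, 4.02 to 4.43, lay under the background guide. Dcn, the related decorin, read 9.51, 9.30 and 9.86 in wild type and 9.65, 10.15 and 10.02 in knockout, a difference of 0.38 with overlapping groups. Both also stand on the list of 7 meningeal and fibroblast markers, of which 2 were higher and 5 lower. The list means were 7.02 to 7.09 in wild type and 6.85 to 7.07 in knockout. Of these markers, Lum and Ogn lay under the guide. Ptprz1, whose secreted form is the tenascin-binding proteoglycan phosphacan, differed by -0.05 (0.12 without wild-type replicate 1). Among 16 receptors and binding partners 5 were higher and 11 lower, with 2 of the 16 under the guide. Tnr, the tenascin that cross-links lecticans, was 9.95, 9.73 and 9.92 in wild type and 9.97, 10.12 and 9.98 in knockout, a difference of 0.15 with separate groups, and Rtn4rl1 differed by -0.12.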

How the data were processed

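The deposited values are log2 expression per transcript cluster, deposited after RMA summarisation. RMA is named in the submitters' processing notes; the sources used here give neither its version nor the genome build. RMA equalises the arrays and so removes any global shift. Of 35557 clusters, 21789 had 1 symbol in the platform annotation. These gave 19938 genes, with symbols updated through entrez identifiers and the cluster of highest mean kept per gene. Array medians were 6.96 to 7.10. Precision is limited by having 3 arrays a group. Knockout and wild type were compared over all genes with limma 3.58.1 (lmFit, eBayes, two-sided, Benjamini-Hochberg) in R 4.3.3, with group as the only term, and the fit was tested on simulated data. Members, lists and alternatives were chosen with earlier results of these data known. The text gives every member by its difference or its values per array. Values per array are given for Tnc, for members with an unadjusted p under 0.05 or separate groups, and for 20 members fixed by name. Further members with wide spread between arrays (Has3, Sdc1, Glce, Gpc5, Chst13) were chosen after their values were seen. The X-linked neighbours Gpc3 and Gpc4 were also chosen after their values were seen. From each pathway list the gene of smallest p in each direction is named, and Sulf2, Hs3st4 and Ptprz1 were added. Promoters are RefSeq sequences of GRCm38.p6. No sample was dropped. Figures were drawn with matplotlib.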

Additional observations from a re-analysis of the deposited data

How the results depend on the processing

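Leaving out single arrays gave 0 to 4 members with an unadjusted p under 0.05, 7 to 15 members with separate groups and a median over members of 0.0052 to 0.040. The 4 members at the upper end, without wild-type replicate 3, were Acan, Bcan, Has2 and Ndst3, when 6.91% of all genes reached that p. The 2 without wild-type replicate 1 were Dse and Sdc1, when 3.33% of all genes reached that p. Between 0 and 4 genes passed an adjusted p of 0.05, the 4 being the sex-linked Xist, Uty, Eif2s3y and Kdm5d without knockout replicate 2. Whether the replicate numbers pair the arrays is unclear: the deviations of same-numbered arrays correlated at 0.35, -0.07 and 0.45, 4 of 6 arrays correlated best with their own number, and the labels name no shared litter or batch. With the replicate block 1 member, Has2, had an unadjusted p under 0.05, beside 3.19% of all genes. That count was also 1, Bcan, without the lowest quartile of genes by level (1.65% of genes tested). Bcan was again the only one without genes below the median level (2.09%), with an intensity trend and robust fit (1.62%) and with median centring (2.01%). The member count was 11 with array weights, when 21.0% of all genes reached that p, and the median over members was then 0.055. Median centring gave 10 of 58 members with separate groups, beside 7.17% of all genes, and a median of 0.053. Renewed quantile normalization gave 3 of 58 with separate groups, Chpf, Dse and Ndst2, beside 6.72% of all genes. With all 35557 clusters tested, 9 passed an adjusted p of 0.05, and 0 of them were members. With the Y-linked term the difference was 0.23 for Bcan and -0.27 for Has2. Of the member values under these alternatives 893 moved by less and 20 by more than the standard deviation within groups. The 893 include settings that cannot move a member's difference, so the count overstates how stable the differences are. These are the replicate block, the level filters, the trend and robust fit, the mean of a gene's clusters and the test of all clusters.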
